A study of Mus musculus with 15 samples.

Results

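The 10 genes described here are Fos, Fosb, Fosl2, Jun, Junb, Jund, Egr1, Ier2, Dusp1 and Myc, immediate early genes of the AP-1, EGR and MYC kind, in mouse hematopoietic progenitors with 1 or both copies of Ddx41, the gene of an RNA helicase of the DEAD-box family. They were chosen by name, as members of these families, but with earlier results of these data known. All 10 were found among the 55359 genes of the deposited tables, and all 10 passed the filter on low counts, which 14548 genes passed.

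Immediate early genes are transcribed within minutes of a stimulus, from factors already present in the cell, and many of their messages are short-lived. Fos and Jun family proteins pair to form AP-1, which binds DNA. EGR1 is a zinc-finger factor induced by the same MAP kinase signals, DUSP1 is a phosphatase that switches those kinases off, and MYC drives growth and ribosome production in dividing progenitors.

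RNA was sequenced from progenitors of mouse fetal liver immortalized with Hoxb8, a homeobox factor, and grown with β-estradiol. All 15 libraries come from cells that had been exposed to a retrovirus for 2 days and then isolated by FACS. Cells of genotype hi-Ddx41+/+ carried the empty vector (WT empty). Cells of genotype hi-Ddx41+/- carried the empty vector (Het empty) or a vector with DDX41 WT (Het DDX41), with DDX41 G173R (Het G173R) or with DDX41 R525H (Het R525H). Each group has 3 libraries, numbered 1 to 3 in the titles. Since only 1 line stands for each genotype, as far as the labels say, a difference of genotype and a difference between lines cannot be told apart. Nothing in the labels says that the 3 libraries of a group are separate cultures, and the spread that the p-values rest on may therefore be technical. For 12 of the 15 files the code in the file name is not that of the sample title; the groups used here follow the titles. The wild-type and heterozygous codes are the same in both, so that this disagreement bears on the 4 heterozygous groups only.

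Library totals were 22104066 to 49145873 expected counts, and the 10 genes took 0.0342 to 0.0522 percent of a library. Ddx41 itself stood at 55.6 to 63.4 CPM, a count divided by the scaled size of its library, in WT empty and at 27.8 to 36.9 CPM in the 12 heterozygous libraries, the DDX41 vector groups included. Of 8 progenitor markers, 7 had a mean over 1 TPM (a transcript level scaled by length), among them Kit and Cd34, while Cd48 stayed at or under 0.16 TPM. The macrophage genes C1qa, C1qc and Vsig4, the mast cell genes Mcpt4 and Tpsb2, the fibroblast genes Col1a1 and Col3a1 and the hepatocyte genes Alb and Ttr were at 0 in all 15 libraries. Other genes of these lists were present: Adgre1 of macrophages at 43.4 to 164 TPM, Cpa3 and Ms4a2 of mast cells at 8.34 to 43 and 1.3 to 22.4 TPM, and Pdgfrb of fibroblasts at 10.8 to 21.1 TPM.

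RefSeq promoter windows (GRCm38.p6, 250 bases before to 50 after a start) were at hand for 7 of the 10 genes. The 150 bases before the start of Fos, Jun, Junb and Dusp1 are shown, 5′ to 3′ on the strand of the gene, because Fos, Jun and Dusp1 moved together across libraries while Junb followed a second pattern. They are chr12:85473740-85473889 (+) for Fos, chr4:95052223-95052372 (-) for Jun, chr8:84978749-84978898 (-) for Junb and chr17:26508473-26508622 (-) for Dusp1. Capitals mark the cAMP response element TGACGTCA or its core TGACG, the TATA box TATAAA and the CCAAT box CCAAT, searched on both strands.
Fos: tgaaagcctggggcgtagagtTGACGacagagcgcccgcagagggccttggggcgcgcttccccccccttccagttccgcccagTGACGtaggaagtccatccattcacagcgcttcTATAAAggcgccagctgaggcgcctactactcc
Jun: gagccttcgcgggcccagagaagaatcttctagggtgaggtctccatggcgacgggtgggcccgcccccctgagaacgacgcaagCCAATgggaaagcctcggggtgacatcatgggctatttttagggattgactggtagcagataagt
Junb: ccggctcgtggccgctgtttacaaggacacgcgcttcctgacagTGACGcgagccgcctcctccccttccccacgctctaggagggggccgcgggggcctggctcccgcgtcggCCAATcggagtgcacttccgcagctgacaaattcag
Dusp1: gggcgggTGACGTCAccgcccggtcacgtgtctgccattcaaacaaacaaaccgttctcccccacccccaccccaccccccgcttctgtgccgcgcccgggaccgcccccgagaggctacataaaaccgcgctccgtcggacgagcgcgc
The full TGACGTCA was in the window of Dusp1 alone among the 7, and in 1.8 percent of 32544 distinct windows of this length. The core TGACG, which every full element contains, was in the windows of Fos, Fosb, Junb and Dusp1 and in 20.9 percent of all. TATAAA was in those of Fos and Junb (13.6 percent of all), and in Fos it starts 33 bases before the start of transcription. In Junb the match begins where transcription starts, after the 150 bases shown, and not upstream as in Fos. The EGR motif GCGNGGGCG was in Fosb and Fosl2 (5.6 percent), and the GC box GGGCGG in Fos, Fosb, Fosl2, Jun and Dusp1 (35.9 percent). CCAAT was in Jun and Junb (37.4 percent). Neither the AP-1 motif TGANTCA (7.79 percent of windows) nor the CArG box (1.64 percent) was in any of the 7 windows. Egr1, Ier2 and Myc had no window, and sequence more than 250 bases before a start was not searched. These are matches of letters only.

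Per transcript length, Myc was by far the most abundant of the 10, with a mean of 119 ± 16.7 TPM (SD, n = 15 libraries). Ier2, a nuclear protein of the early response, followed at 23.9 ± 5.93 TPM. Jun (10.7 ± 4.44), Junb (9.06 ± 2.82) and Jund (9.05 ± 2.57) were close together. Dusp1 stood at 6.58 ± 2.55, Egr1 at 4.15 ± 2.39, Fos at 3.24 ± 2.12, Fosl2 at 2.83 ± 0.96 and Fosb at 1.15 ± 0.467 TPM. Myc exceeded Ier2, Ier2 exceeded Jun, Dusp1 exceeded Egr1 and Fosl2 exceeded Fosb in 15 of 15 libraries. Other neighbours changed places between libraries. Jun was above Junb in 11, Junb above Jund in 8, Jund above Dusp1 in 12, Egr1 above Fos in 13 and Fos above Fosl2 in 9 of 15.

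The genes also differed in how much they varied. The highest Fos value was 9.17 times the lowest, for Fosb 6.22 times, for Egr1 6.1 times and for Myc 1.86 times. The within-group SD of Fos on the log2 scale was 1.03, above that of 97.1 percent of the genes tested, and that of Egr1 was 0.893, above 94.8 percent. Myc, at 0.253, lay near the middle, above 57.3 percent of genes.

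**Figure D1:**
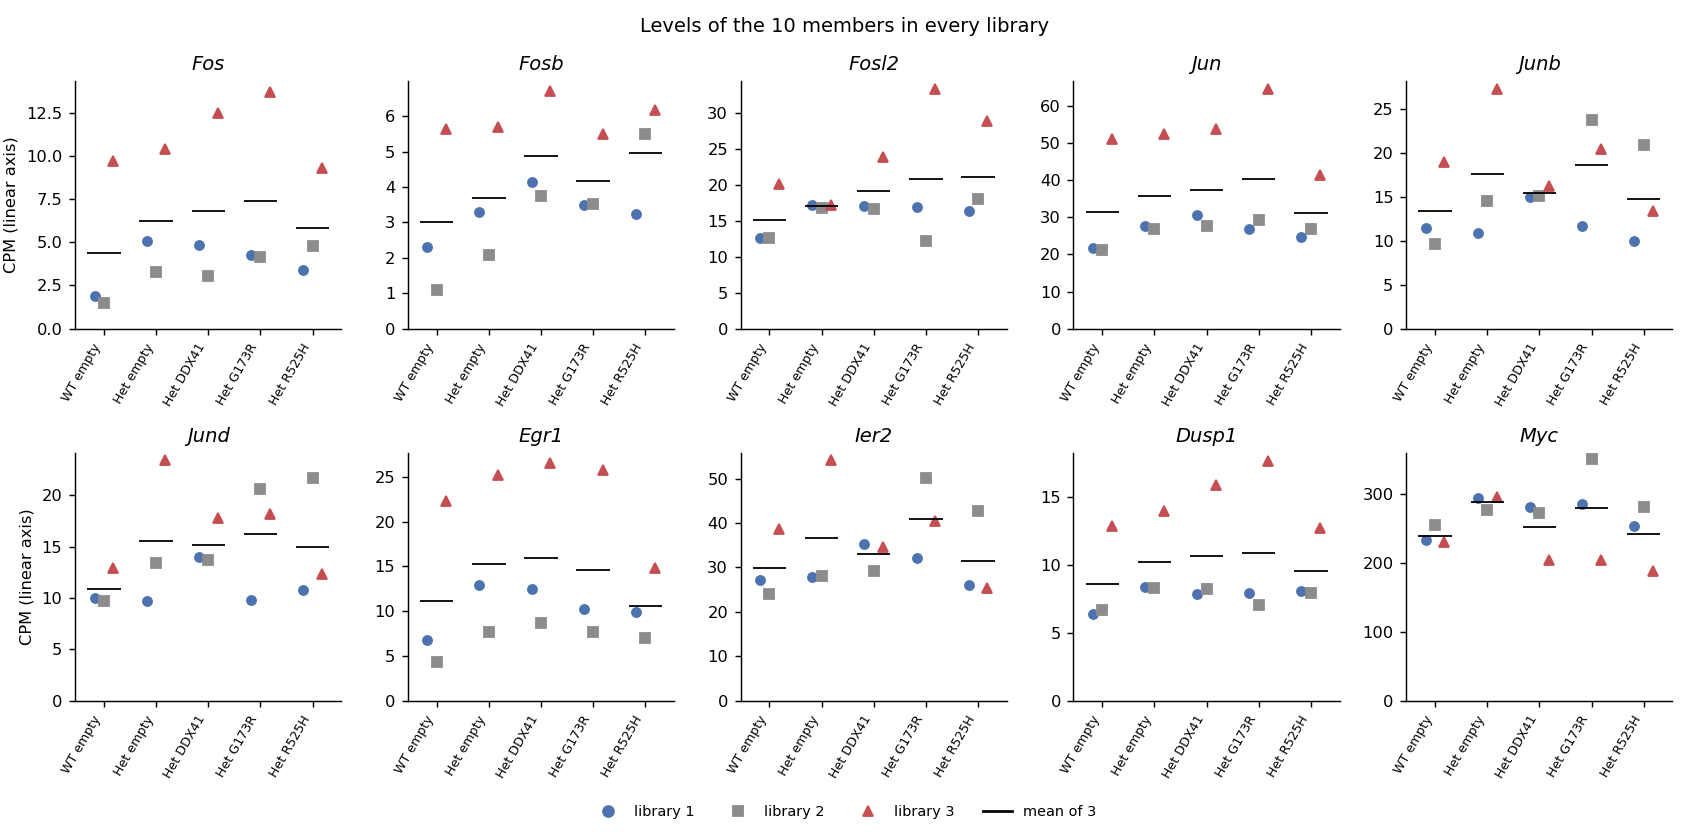
CPM (linear axis from 0) of each of the 10 genes in the 15 libraries, by group; symbols give the library number and the line is the mean of 3. Library 3 is the highest of its group in all 5 groups for Fos, Fosb, Fosl2, Jun, Egr1 and Dusp1, while Junb, Jund and Ier2 peak in Het empty 3, Het G173R 2 and Het R525H 2.

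No gene of the set was called different between any of the 5 groups in the fit of all 15 libraries with group as its only term. A gene was called at an adjusted p under 0.05 in edgeR's quasi-likelihood test with Benjamini-Hochberg adjustment over all genes tested. Heterozygous cells with the empty vector were compared with wild-type cells to ask what the loss of 1 Ddx41 copy goes with. There 0 of 10 were called, where 3.66 percent of all genes were, and no unadjusted p was under 0.05. The estimates were all positive, from 0.17 (Fosl2) to 0.51 (Jund and Fos) on the log2 scale with a median of 0.29, against a median of -0.00103 over all genes. The smallest adjusted p was 0.722. Between libraries of the same number, the Het empty value was above that of WT empty in 3 of 3 for Fos, Fosb, Jun, Egr1, Ier2, Dusp1 and Myc and in 2 of 3 for Fosl2, Junb and Jund. Leaving out library 3 of 1 group only makes the groups unequal in number: without Het empty 3 the estimates of Fos, Fosb, Jun, Junb, Egr1, Ier2 and Dusp1 were -0.20 to -0.043, and without WT empty 3 all 10 were positive, up to 1.88 for Fos. With the library number added as a block, 0 of 10 were called, the smallest adjusted p was 0.0504 (Egr1), and the share of all genes called was 9.29 percent.

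Fos, the partner that gives AP-1 its induced form, was at 1.91, 1.496 and 9.71 CPM in libraries 1, 2 and 3 of WT empty. In the heterozygous cells it was at 5.05, 3.26 and 10.4 CPM in Het empty, 4.83, 3.05 and 12.4 in Het DDX41, 4.28, 4.12 and 13.7 in Het G173R and 3.41, 4.81 and 9.31 in Het R525H. Libraries 1 and 2 of WT empty were thus the lowest of the 15, while library 3 of that group lay among the other libraries numbered 3. The group means, 4.37 ± 4.63 CPM in WT empty and 6.24 ± 3.73 CPM in Het empty (SD, n = 3), differed by less than either SD, and the log2 difference was 0.51 (95% interval -1.12 to 2.14, edgeR adjusted p = 0.947).

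Fosb, a close relative of Fos, was at 2.31, 1.08 and 5.63 CPM in WT empty. It was at 3.295, 2.08 and 5.71 CPM in Het empty, 4.15, 3.75 and 6.71 in Het DDX41, 3.49, 3.53 and 5.51 in Het G173R and 3.24, 5.51 and 6.17 in Het R525H. It had its lowest value in WT empty 2 and overlapped between all groups. Fosl2, a further Fos-related AP-1 protein, was at 12.6, 12.6 and 20.2 CPM in WT empty and at 17.2, 16.8 and 17.3 in Het empty, 17.04, 16.6 and 23.9 in Het DDX41, 16.9, 12.3 and 33.4 in Het G173R and 16.4, 18.1 and 28.9 in Het R525H. Its 3 values in Het empty were nearly equal, whereas those in Het G173R spanned the whole range of the gene.

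Jun, the main partner of Fos, was at 21.8, 21.2 and 51.1 CPM in WT empty. In the heterozygous groups it was at 27.6, 26.9 and 52.5 CPM in Het empty, 30.7, 27.8 and 53.8 in Het DDX41, 26.8, 29.3 and 64.6 in Het G173R and 24.7, 26.96 and 41.5 in Het R525H. WT empty 1 and 2 were again the 2 lowest of the 15 libraries, and the log2 difference of Het empty from WT empty was 0.18 (95% interval -0.74 to 1.11, edgeR adjusted p = 0.971). Jun had fractional expected counts, which come from reads shared with other features, in 26.7 percent of libraries and Jund in 60 percent, so their counts depend in part on how RSEM divided such reads.

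Junb, a Jun family protein that can restrain JUN, was at 11.4, 9.67 and 18.9 CPM in WT empty and at 10.9, 14.6 and 27.3 in Het empty, 14.96, 15.1 and 16.3 in Het DDX41, 11.7, 23.7 and 20.5 in Het G173R and 10.003, 20.9 and 13.4 in Het R525H. Jund, the Jun member with the steadiest expression in many tissues, was at 9.98, 9.72 and 12.9 CPM in WT empty and at 9.69, 13.4 and 23.4 in Het empty, 14.04, 13.7 and 17.8 in Het DDX41, 9.84, 20.7 and 18.2 in Het G173R and 10.8, 21.7 and 12.3 in Het R525H. Both genes were high in Het empty 3, Het G173R 2 and Het R525H 2, and low in library 1 of these groups. The log2 difference of Het empty from WT empty was 0.40 (95% interval -0.39 to 1.18) for Junb and 0.51 (-0.22 to 1.25) for Jund.

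Egr1 was at 6.804, 4.35 and 22.2 CPM in WT empty. In the heterozygous groups it was at 12.96, 7.64 and 25.2 CPM in Het empty, 12.5, 8.71 and 26.5 in Het DDX41, 10.2, 7.68 and 25.8 in Het G173R and 9.89, 6.98 and 14.8 in Het R525H. In each group library 3 was the highest and library 2 the lowest, and Het R525H 3 was the lowest of the libraries numbered 3. Egr1 in Het R525H was below Het empty at every one of the 3 numbers, but the log2 difference of -0.54 had a 95% interval of -1.93 to 0.85 (edgeR adjusted p = 0.9998). Ier2 was at 27.2, 23.9 and 38.6 CPM in WT empty and at 27.8, 28.02 and 54.2 in Het empty, 35.3, 29.1 and 34.6 in Het DDX41, 32.2, 50.2 and 40.4 in Het G173R and 26.1, 42.6 and 25.5 in Het R525H. Its highest library was Het empty 3 and its lowest WT empty 2. Dusp1 was at 6.35, 6.67 and 12.8 CPM in WT empty and at 8.41, 8.33 and 13.99 in Het empty, 7.85, 8.21 and 15.9 in Het DDX41, 7.95, 7.03 and 17.7 in Het G173R and 8.05, 7.96 and 12.7 in Het R525H. The libraries numbered 1 and 2 lay close together in every group, with library 3 well above them.

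Myc was at 233, 254 and 229.97 CPM in WT empty. It was at 293, 276 and 295 CPM in Het empty, 279.8, 272 and 204 in Het DDX41, 285, 350.5 and 203 in Het G173R and 253, 280.4 and 188 in Het R525H. It was the one member whose 3 Het empty values all lay above the 3 of WT empty, as was the case for 17.2 percent of all genes. The means were 288 ± 10.3 and 239 ± 13.3 CPM (SD, n = 3), a log2 difference of 0.27 (95% interval -0.12 to 0.66, edgeR adjusted p = 0.730). Myc was 230.0 to 254 CPM in WT empty and 188 to 280.4 CPM in Het R525H, and their means of 239 and 241 CPM were nearly equal (log2 difference 0.01, 95% interval -0.38 to 0.40).

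**Figure D2:**
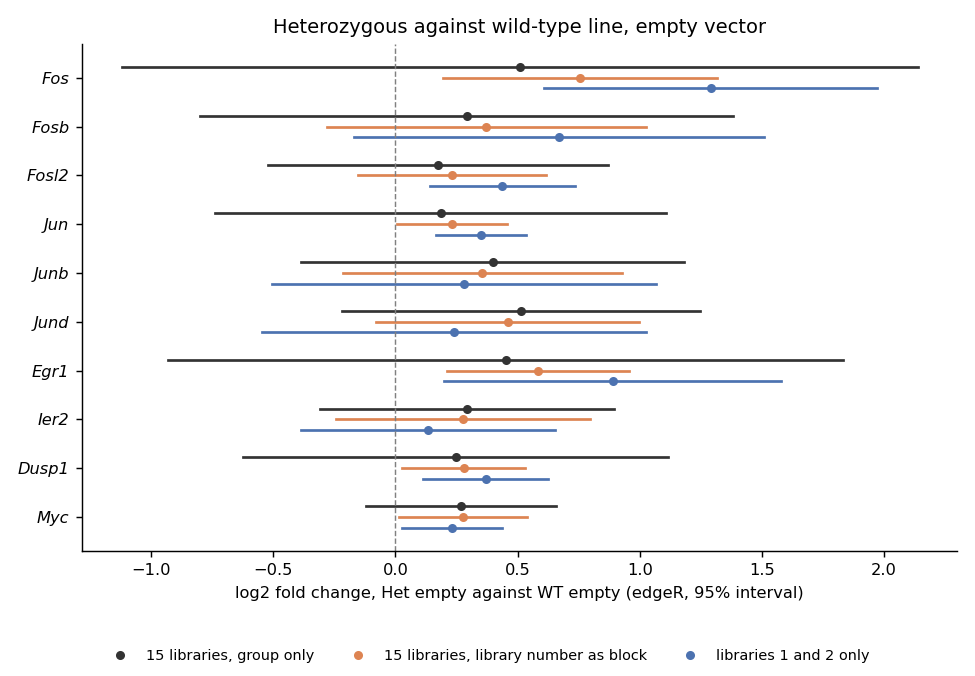
Log2 fold change of Het empty against WT empty (x axis) for each of the 10 genes, with 95% intervals from edgeR; the colours give all 15 libraries with the group only, the same with the library number as a block, and libraries 1 and 2 only. All 30 estimates are above 0. With all libraries every group-only interval includes 0. With the block, the intervals of Fos, Jun, Egr1, Dusp1 and Myc do not include 0. With libraries 1 and 2 only, those of Fos, Fosl2, Jun, Egr1, Dusp1 and Myc do not.

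Within the heterozygous line, each DDX41 vector was set against the empty one to ask whether wild-type or mutant DDX41 changes these genes. No member was called for DDX41 (background 0 percent of genes), G173R (0 percent) or R525H (0.0137 percent), and none had an unadjusted p under 0.05. The log2 differences ran from -0.19 (Myc) to 0.40 (Fosb) for DDX41, from -0.06 (Egr1) to 0.29 for G173R and from -0.54 (Egr1) to 0.43 (Fosb) for R525H. The 3 comparisons share the Het empty libraries. Mean Ddx41 was 30.3 CPM in Het empty and 32.1 to 33.3 CPM with the vectors that carry DDX41. Whether these vectors raised DDX41 was not tested, so the lack of calls does not show that DDX41 leaves these genes unchanged. Codes and titles also disagree among the heterozygous groups, as given above. The widest 95% interval for DDX41, that of Fos, was -1.5 to 1.72. It was narrower in the fit of libraries 1 and 2 only, from -0.72 to 0.56. Between the vectors no member was called either: G173R against DDX41 and R525H against DDX41 had a background of 0 percent, and R525H against G173R had 0.0825 percent. Against WT empty, which these comparisons share, the fit with group as its only term called 0 of 10 in Het DDX41 (4.54 percent of genes), Het G173R (3.79 percent) and Het R525H (6.68 percent), with 10, 10 and 8 positive estimates. The F test over the 5 groups called 0 of 10 (3.7 percent of genes). With the number as a block, Egr1 was called in Het DDX41 against WT empty, and Fos and Jun in Het G173R. Those fits are given at the end.

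In fits with group as their only term, the calls of Fos and Jun between the lines differed with and without the libraries numbered 3. Among the libraries numbered 1 and 2, Fos was 1.496 to 1.91 CPM in WT empty and 3.05 to 5.05 CPM in the 8 heterozygous ones, with no overlap. Jun was 21.2 to 21.8 CPM in WT empty and 24.7 to 30.7 CPM in the other 8, also with no overlap. Egr1 (4.35 to 6.8 against 6.98 to 13 CPM) and Dusp1 (6.35 to 6.67 against 7.03 to 8.41 CPM) were likewise apart, so that 4 of 10 members were lower in both wild-type libraries than in all 8 others, as were 10.4 percent of all genes. In the libraries numbered 3, by contrast, the WT empty value of Fos (9.71 CPM) lay within the heterozygous range of 9.31 to 13.7 CPM, and that of Jun (51.1 CPM) within 41.5 to 64.6 CPM.

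When libraries 1 and 2 alone were fitted, Fos was called higher than in WT empty in all 4 heterozygous groups, which share these 2 control libraries. This fit had 2 libraries per group and left out those in which Fos and Jun were highest. The log2 difference of Fos was 1.29 in Het empty (SE 0.307, edgeR adjusted p = 0.0287), 1.21 in Het DDX41 (0.0321), 1.30 in Het G173R (0.0276) and 1.27 in Het R525H (0.0206). Jun was called higher in Het empty (0.35, adjusted p = 0.0279), Het DDX41 (0.45, 0.00632) and Het G173R (0.38, 0.0173), and in Het R525H it had 0.27 with an adjusted p of 0.0619. Fosb (1.37, adjusted p = 0.0347) and Fosl2 (0.45, 0.0497) were called in Het R525H, and Myc in Het G173R (0.38, 0.0302). Egr1 had 0.89 in Het empty with an adjusted p of 0.145. The shares of all genes called in these fits were 7.4, 9.06, 7.85 and 13.2 percent, in the same order of groups, and 7.36 percent for any difference among the 5 groups, where Jun was called (adjusted p = 0.0388). No member was called among the heterozygous groups in this fit, where 0 to 0.263 percent of genes were called (0 for DDX41 and G173R against Het empty, 0.132 for R525H against Het empty, 0.00693 for G173R and 0.097 for R525H against DDX41, 0.263 for R525H against G173R).

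Whether library 3 differed from libraries 1 and 2 by another amount in the wild-type line was tested as an interaction, chosen after the values were seen. The excess of WT empty was 1.04 on the log2 scale for Fos (SE 0.334, edgeR adjusted p = 0.347), 0.32 for Jun (SE 0.154, adjusted p = 0.594) and 0.75 for Egr1 (SE 0.207, adjusted p = 0.226). No member was called (0.433 percent of genes were), and the estimate rests on a single wild-type library numbered 3. The calls in the fit of libraries 1 and 2 alone therefore do not show a line difference particular to those libraries.

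Most of these genes differed by library number. Within groups, libraries numbered 3 were compared with libraries 1 and 2 in a model with group and number: 7 of 10 members were called higher and 1 lower. The background is large, since 46.1 percent of all genes were called (21.1 percent higher and 25 percent lower). The labels give no meaning to the number, and what it stands for was not tested. Fos had the largest difference, at 1.68 (SE 0.163, edgeR adjusted p = 3.54e-06), followed by Egr1 at 1.43 (SE 0.111, 5.9e-07). These differences lay above those of 98.8 and 97.9 percent of the genes tested. Jun followed with 0.998 (SE 0.0678, 2.37e-07), then Fosb with 0.95 (SE 0.194, 0.00126) and Dusp1 with 0.93 (SE 0.076, 8.85e-07). These 3 lay above 94.9, 94.3 and 94.1 percent of genes. Fosl2 was higher by 0.65 (SE 0.117, adjusted p = 5.31e-04).

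In every group, library 3 had the highest value of Fos, Fosb, Fosl2, Jun, Egr1 and Dusp1, which held for 12.2 percent of all genes. Against the mean of libraries 1 and 2, Fos in library 3 was 5.7 times as high in WT empty, 2.51 times in Het empty, 3.16 times in Het DDX41, 3.26 times in Het G173R and 2.26 times in Het R525H. Egr1 was 3.99 times as high in WT empty and 1.75 times in Het R525H, with the other groups between 2.44 and 2.88 times. For Fosl2 the log2 difference was only 0.02 in Het empty and reached 1.21 in Het G173R.

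Junb, Jund and Ier2 did not share this split. Junb was called higher by 0.45 (SE 0.177, edgeR adjusted p = 0.048), but the call was lost in DESeq2 (adjusted p = 0.0802), in limma voom (0.0532) and in 9 of 15 fits that left out 1 library (WT empty 2 or 3, any of the Het empty libraries, Het DDX41 2, Het G173R 1 or 3, Het R525H 1), with an adjusted p of up to 0.216. Jund had 0.37 (adjusted p = 0.0802) and Ier2 0.27 (0.188). Myc went the other way, with a log2 difference of -0.32 (SE 0.0829, adjusted p = 0.00668), and library 3 was its lowest value in 4 of 5 groups, all but Het empty. Without Het DDX41 library 3 the Myc value was -0.24 with an adjusted p of 0.0551.

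**Figure D3:**
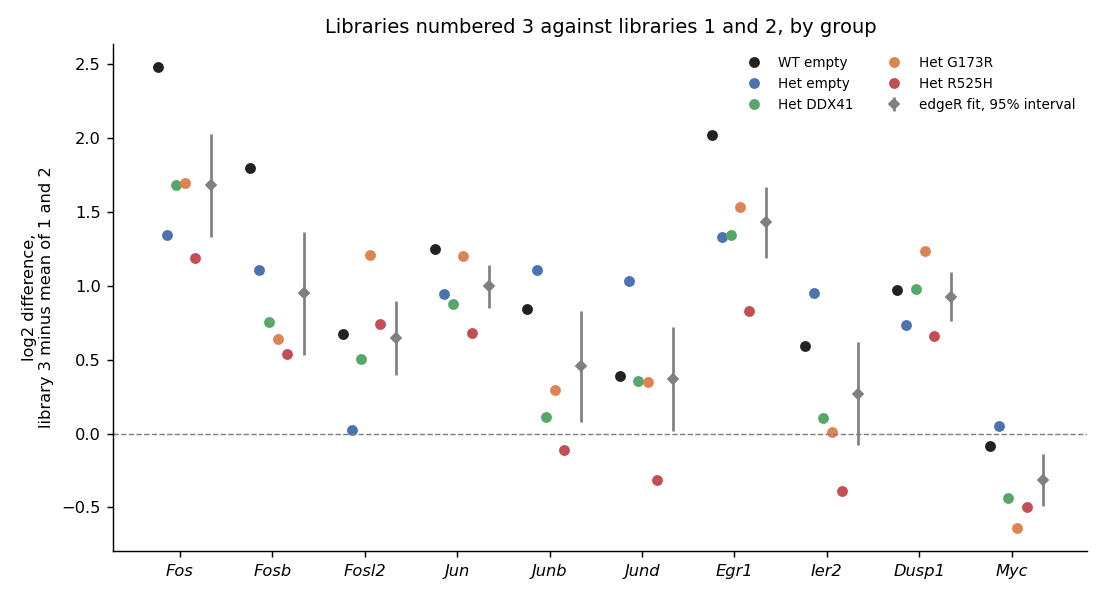
Log2 difference between library 3 and the mean of libraries 1 and 2 (y axis) for each gene; circles are the 5 groups and the grey diamond is the edgeR estimate with its 95% interval. All 5 groups are above 0 for Fos, Fosb, Fosl2, Jun, Egr1 and Dusp1, and 4 of 5 are below 0 for Myc.

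The summed level of 7 neutrophil genes was lower in every library numbered 3, at 274 to 396 TPM against 500 to 948 TPM in libraries 1 and 2. This sum is nearly all Mpo of granulocyte precursors (259 to 915 TPM). The next highest, Elane, reached 19 TPM, so the sum says little of the other neutrophil genes. The sum of 7 macrophage genes, nearly all Adgre1, was 43.4 to 104 TPM and 59.9 to 164 TPM, with overlap. Neither sum was tested. The part of these differences in the result for Fos and the others was not tested, and in bulk RNA a change in the mix of cells and a change per cell cannot be told apart.

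A second pattern joined Junb, Jund and Ier2. All 3 were high in Het empty 3, Het G173R 2 and Het R525H 2, libraries of 3 different vectors and of numbers 2 and 3. Over the 15 libraries, log2 CPM of Junb correlated with that of Ier2 (Pearson r = 0.933, permutation p = 1e-05, the smallest that 100000 permutations give) and of Jund (r = 0.932, p = 1e-05). Spearman's rho was 0.929 and 0.925. Jund and Ier2 had r = 0.862 (permutation p = 7e-05, rho = 0.836). All 3 adjusted p over the 45 pairs of members were 2.9e-04 or less. The permutations exchanged libraries freely across groups and numbers. Genes that both follow the line or the number can thus get a small p, here and in the relations below. Without the 2 libraries farthest from the median, r was 0.880, 0.889 and 0.790. The 2 patterns were not wholly apart. Junb also had r = 0.631 with Jun, 0.618 with Fosb and 0.600 with Fos (permutation adjusted p = 0.0281, 0.0277 and 0.0353). With Egr1 and Dusp1 it had r = 0.475 and 0.488 (permutation adjusted p = 0.105 and 0.098).

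Within the 10 libraries numbered 1 and 2, r was 0.918 for Junb and Ier2, 0.962 for Junb and Jund and 0.868 for Jund and Ier2 (permutation adjusted p = 0.0081, 0.0081 and 0.0287), and without the 2 farthest libraries 0.681, 0.893 and 0.498. The relation of Jund and Ier2 there thus rests in part on these 2 libraries. Junb and Egr1 had r = -0.00753 in the same 10 libraries (permutation p = 0.983). Other pairs across the patterns were closer there: Jun had r = 0.629 with Junb and 0.644 with Ier2 (permutation adjusted p = 0.112 and 0.108). Myc and Ier2 had r = 0.772 (permutation adjusted p = 0.0465). Fos and Jun had r = 0.875 there (permutation adjusted p = 0.0287), which fell to 0.414 without the 2 farthest libraries and so rests on them. Dusp1 had r = 0.716 with Fos and 0.642 with Jun there (permutation adjusted p = 0.0869 and 0.108). Without the 2 farthest libraries these were -0.163 and -0.437. The 5 libraries numbered 3 are too few for a value of their own.

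Junb, Jund and Ier2 are also the most GC-rich of the 10 genes. Their transcripts hold 62.7, 67.1 and 60.9 percent G and C, above 98.9, 99.8 and 97.6 percent of the genes tested, while the other 7 hold 53.0 to 56.7 percent. GC-rich genes as a whole also shifted between libraries: the log2 deviation of GC-rich genes (upper quartile, from 54.7 percent) minus that of GC-poor genes (lower quartile, up to 45.5 percent) ran from -0.266 in WT empty 1 to 0.288 in Het G173R 2. It was 0.0713 in Het empty 3 and 0.143 in Het R525H 2, where the 3 genes were also high. In Het empty 2, where the 3 genes lay below their means, it was 0.145. The relation of this difference with the 3 genes over 15 libraries was r = 0.447 (Junb), 0.491 (Jund) and 0.476 (Ier2). The permutation adjusted p was 0.24 for each over 10 relations. Spearman's rho was 0.379, 0.489 and 0.404 (adjusted p = 0.275 for each), and r without the 2 farthest libraries was 0.23, 0.285 and 0.249. In the 10 libraries numbered 1 and 2, r was 0.703, 0.735 and 0.624 (permutation adjusted p = 0.118, 0.118 and 0.13). There Spearman's rho was 0.745, 0.758 and 0.685 (adjusted p = 0.086, 0.086 and 0.116), and r without the 2 farthest libraries was 0.853, 0.772 and 0.757. Myc had r = 0.688 with this measure over 15 libraries (permutation adjusted p = 0.0485), 0.591 without the 2 farthest, and Spearman's rho of 0.55 (adjusted p = 0.275). In the 10 libraries Myc had r = 0.629 (adjusted p = 0.13). Whether GC content has a part in the pattern of Junb, Jund and Ier2 was not tested.

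**Figure D4:**
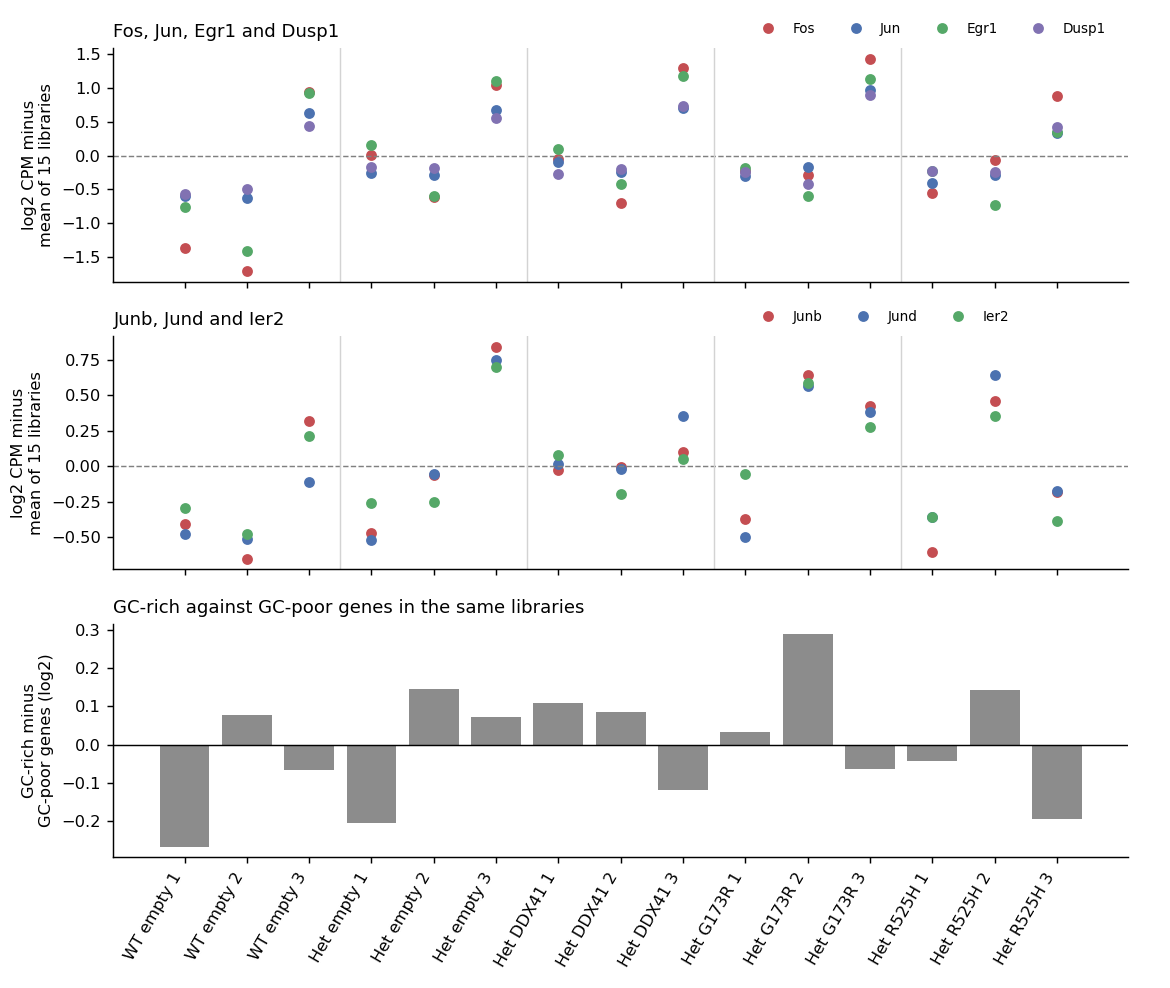
Log2 CPM minus the mean of the 15 libraries for Fos, Jun, Egr1 and Dusp1 (top) and for Junb, Jund and Ier2 (middle), and the log2 difference between GC-rich and GC-poor genes (bottom), with the libraries along the x axis. The first 4 genes are high in all 5 libraries numbered 3, and the other 3 genes peak in Het empty 3, Het G173R 2 and Het R525H 2.

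Among 9101 named genes of at least 5 CPM, those most like Fos over the 15 libraries, by Pearson r of log2 CPM, were Jun (0.947), Cdkn1a (0.944), Osm (0.940), Egr1 (0.938) and Btg1 (0.932). Cdkn1a encodes the cell cycle inhibitor p21, Osm the cytokine oncostatin M and Btg1 an antiproliferative protein. Egr1 was most like Fos (0.938), Jun (0.933), Dusp1 (0.918), Cdkn1a (0.912) and Scd1 (0.909), a fatty acid desaturase. Myc was most like Dxo (0.952), Pex14 (0.952), H2bc14 (0.948), Lyl1 (0.947) and Tjap1 (0.946). Lyl1 is a transcription factor of blood progenitors and Pex14 a peroxisome protein. All these libraries share the split by number, so the values are a description.

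A few listed genes of the same pathways were called between the 2 lines, as were 3.66 percent of all genes in Het empty against WT empty. Batf, an AP-1 partner that lacks an activation domain, was at 0.787, 0.748 and 0.753 CPM in WT empty and at 7.902, 9.23 and 8.68 in Het empty, 9.27, 9.57 and 9.11 in Het DDX41, 9.58, 9.44 and 8.801 in Het G173R and 9.54, 9.46 and 8.31 in Het R525H. No heterozygous library came near the wild-type ones. The log2 difference was 3.49 for Het empty (SE 0.123, edgeR adjusted p = 4.25e-10) and 3.57 to 3.60 for the 3 DDX41 vector groups. Nab1, a corepressor that binds EGR proteins, was at 19.96, 20.5 and 20.4 CPM in WT empty and between 71.1 and 95.01 CPM in the heterozygous libraries (log2 difference 1.99 for Het empty, SE 0.128, adjusted p = 3.05e-07). Egr1 itself overlapped between the same groups. Plk2, an immediate early kinase, combined both patterns. It was at 1.57, 1.69 and 3.09 CPM in WT empty and at 11.52, 12.1 and 28.03 in Het empty, with a log2 difference of 3.02 (SE 0.699, adjusted p = 0.0262), and it was higher by 1.49 in libraries numbered 3 (SE 0.101, adjusted p = 2.4e-07).

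Mycn, a relative of Myc, fell: 17.9, 18.1 and 18.9 CPM in WT empty against 10.1, 10.7 and 14.5 in Het empty (log2 difference -0.64, SE 0.159, edgeR adjusted p = 0.0406). It was also called lower in Het DDX41 (-0.82) and Het R525H (-0.92). Of 19 MYC targets, 1 was called in Het empty against WT empty, the cell cycle gene Ccnd2 (0.43, adjusted p = 0.0403). In Het R525H it was Npm1, a nucleolar protein, that was called (0.31, adjusted p = 0.0183). Jdp2, an AP-1 repressor, was called higher in Het G173R (0.52) and Het R525H (0.47). Spry4, an inhibitor of MAP kinase signalling, was called lower in Het DDX41 and in Het R525H (-0.71 in each), and Rps6ka3, a kinase downstream of ERK, lower in Het R525H (-0.33). In Het R525H these were 1 of 12 and 1 of 21 tested genes of their lists, and Npm1 was 1 of 19. Of all genes, 4.54 percent were called in Het DDX41, 3.79 percent in Het G173R and 6.68 percent in Het R525H against WT empty.

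**Figure D5:**
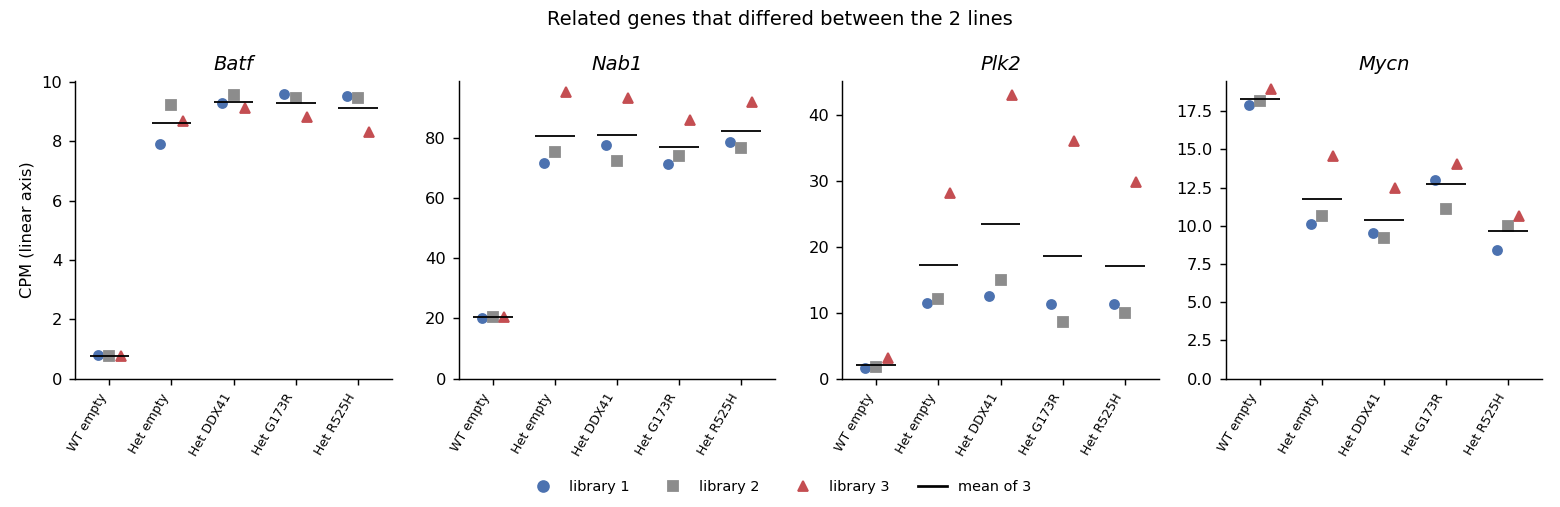
CPM (linear axis from 0) of Batf, Nab1, Plk2 and Mycn by group and library; symbols give the library number and the line is the mean of 3. WT empty does not overlap the other groups: it is below them for Batf, Nab1 and Plk2 and above them for Mycn.

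By list, Het empty against WT empty called 1 of 6 tested genes of the other AP-1 list, 1 of 4 EGR and NAB genes, 1 of 11 MYC network genes, 1 of 26 other immediate early genes, 0 of 12 MAP kinase phosphatases and Sprouty genes, 0 of 21 upstream kinases and factors and 1 of 19 MYC targets, against 3.66 percent of all genes. With the number as a block these were 2, 1, 1, 5, 1, 1 and 3, against 9.29 percent. The median log2 difference was 0.20 for the other immediate early genes, 0.06 for the MYC targets and -0.00103 over all genes. Among the heterozygous groups no gene of these lists was called. Batf2, Batf3, Egr4, Klf4, Nr4a3, Gadd45g, Arc, Npas4, Ccn1 and Ccn2 did not pass the filter.

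By library number, most other immediate early genes were higher, as Fos and Egr1 were. Of 26 tested, 20 were called higher, 1 lower and 5 neither, with a median log2 difference of 0.49. Over all genes, 21.1 percent were called higher and 25 percent lower, with a median of -0.00347. Btg2 (1.82), Ier3 (1.77), Plk2 (1.49) and Btg1 (0.88) were among them. The exception was Zfp36l2 (-0.27), whose relative Zfp36l1 was higher by 1.53. Of 6 tested genes of the other AP-1 list 2 were called higher and 0 lower. Among them was Atf3, a stress-induced factor (2.06, SE 0.193, edgeR adjusted p = 2.77e-06). Of 4 EGR and NAB genes 3 were called higher. These include Egr3 (1.33, adjusted p = 0.0358), which was near the floor at 0.309 against 0.142 CPM. The more abundant Egr2, at a mean of 21.2 CPM, had -0.14 and was not called (adjusted p = 0.288). Of 12 MAP kinase phosphatases and Sprouty genes, 9 were higher and 2 lower, Dusp6 (-0.24) and Dusp7 (-0.37). The upstream kinases and factors had no common direction, with 7 of 21 higher and 8 lower, Creb1 by -0.51. Of 19 MYC targets, 11 were called lower, 2 higher (Ldha, 0.48, and Odc1, 0.12) and 6 neither, with a median of -0.21, where 25 percent of all genes were called lower. Fbl, an RNA methyltransferase of the nucleolus, had -0.40 and Nme1, a nucleotide kinase, -0.44.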

How the data were processed

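The authors deposited 1 table per sample, made with RSEM per the submitters' processing notes; no version, aligner or build is given in the sources used. The tables hold, per the file headers, expected counts, TPM and FPKM, and the effective length of each gene. Per the labels' protocols, the library kit was stranded and rRNA had been depleted. After rounding, the expected counts went into edgeR 4.0.16 (R 4.3.3), with filterByExpr, TMM scaling and 1 quasi-likelihood fit of 15 libraries with group as its term. CPM uses TMM-scaled totals, and log2 CPM for correlations adds a prior count of 2. The deposited TPM served for levels between genes and for markers only. Correlations were tested by permutation (scipy 1.17.1), without regard to group or number. Transcript GC content came from GENCODE M21 transcripts for 14515 of 14548 genes, and promoters from RefSeq (GRCm38.p6). The fit was also run on simulated counts. For the group comparison these lacked the difference by library number seen here, so that run does not test the fit under it. Members and lists, the named-gene rule (called genes, at most 4 per list) and the comparison by number were chosen with earlier results of these data known. Alternatives were DESeq2 1.42.0, its size factors, limma voom 3.58.1, no filter, the number as a block, libraries 1 and 2 only, the 2 groups alone and leaving out each library. The numbers were taken to pair libraries where every correlation of same-numbered deviations was over 0.1: in Het empty against WT empty (0.358 to 0.490), Het G173R against Het empty (0.181 to 0.399) and among the 3 DDX41 vectors (0.280 to 0.707). Depth is 54 to 483 counts for Fos and 4151 to 13432 for Myc per library.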

Additional observations from a re-analysis of the deposited data

How the results depend on the processing

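The number of members called between groups moved in 2 settings, and in neither did a called value change sign. With the replicate block it was 1 in Het DDX41 against WT empty (Egr1, 0.65, edgeR adjusted p = 0.0216). It was 2 in Het G173R against WT empty (Fos 0.92, adjusted p = 0.0362, and Jun 0.37, 0.0384). The numbers were not taken as paired in either. The lowest correlation was -0.0805 in the first and 0.0962 in the second, which is just under the limit of 0.1. The block changed no other call of a member. With libraries 1 and 2 only, the members called were 2 in Het empty and Het DDX41 and 3 in Het G173R and Het R525H against WT empty. Among the 5 groups 1 was called (Jun). Jun and Egr1 in Het R525H against WT empty turned from below to above 0 with limma voom (0.033 and 0.11), with the block (0.073 and 0.17) and with libraries 1 and 2 only (0.27 and 0.59), with no call. Of 700 group values under the alternatives other than leaving out a library, 34 had the other sign, none called, and 13 gained a call. Leaving out 1 library turned 140 of 600 group values, none called; the cause was not tested. Against WT empty, the libraries involved were mostly those numbered 3 of the heterozygous group, and also WT empty 1 (Jun), WT empty 2 (Fosb, Jun, Egr1, Fos), WT empty 3 and Het R525H 1 and 2 (Jun, Egr1). Their ranges (log2) follow. In Het empty against WT empty they were -0.20 to 0.74 (Jun), -0.17 to 1.13 (Fosb), -0.077 to 1.88 (Fos), -0.066 to 0.74 (Junb), -0.12 to 1.46 (Egr1), -0.10 to 0.53 (Ier2) and -0.043 to 0.66 (Dusp1). In Het G173R against WT empty they were -0.33 to 1.38 (Egr1), -0.069 to 2.11 (Fos) and -0.17 to 0.90 (Jun). In Het R525H against WT empty they were -0.10 to 1.76 (Fos), -0.29 to 0.52 (Jun) and -0.48 to 0.90 (Egr1). In Het DDX41 against WT empty they were -0.18 to 1.98 (Fos), -0.13 to 0.79 (Jun) and -0.10 to 1.504 (Egr1). For all genes, the block moved the calls in Het empty against WT empty from 532 to 1352, in the DDX41, G173R and R525H groups against WT empty from 661 to 1887, 551 to 1453 and 972 to 2522, in R525H against Het empty, DDX41 and G173R from 2 to 63, 0 to 59 and 12 to 141, and among the 5 groups from 538 to 1762. By number, Junb ranged from 0.27 to 0.59 without 1 library (called in 6 of 15), Jund from 0.19 to 0.53 (called in 4, without WT empty 1, Het G173R 2, Het R525H 2 or Het R525H 3, and with no filter, adjusted p = 0.0135) and Myc from -0.41 to -0.23 (called in 14); the other calls were kept in all 15. Low counts limit Fosb (39 to 247 counts per library) and Fos most.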
